A study of Mus musculus with 10 samples.

Results

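The beta and gamma crystallins examined here are 10 genes, Cryba1, Cryba2, Cryba4, Crybb1, Crybb2, Crybb3, Crygs, Crygb, Crygc and Crygd, each found as 1 row among the 57186 Ensembl genes of the deposited count table, with at least 1 count in 22756 of them. They were chosen by name. The samples were neuroretinas of female C57BL6/JRj mice, dissected 14 days after 1 µL was injected into the vitreous. The CNP group (5 libraries) received graphitic carbon nitride nanoparticles (hg-C3N4) at 1 mg/mL in phosphate-buffered saline, and the PBS group (5 libraries) received phosphate-buffered saline, so that the needle and the fluid were common to both. Libraries are named by group and by the number in the labels. The labels do not tie every library to an animal of its own, so p-values measure only the spread between these libraries, which may be technical.

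Crystallins are the abundant soluble proteins of the lens, where they give fibre cells their refractive index. Beta and gamma crystallins form 1 superfamily, built of paired domains with Greek key folds. Beta crystallins assemble into dimers and larger oligomers, and the gamma crystallins are monomers. Within the mouse lens, Crygb, Crygc and Crygd belong to a cluster of closely related genes that is most active in fibre cells of the developing lens, whereas Crygs, the gene of gamma S, is prominent in the later-formed cortex. Crystallin transcripts have also been described in retinal neurons and glia. The vitreous separates the retina from the lens.

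All 10 transcripts passed the filter on low counts. Library totals ran from 3328518 to 5428697 counts, and Glul, glutamine synthetase, a marker of the Mueller glia of the retina, was at 811 to 1239 CPM (the count scaled to library size and composition) in all of them. In a whole tissue such as this, fewer cells of a type and less RNA per cell cannot be told apart. The libraries stood far apart in crystallin RNA: the 10 genes together took 0.0239% of all counts in PBS 2 and 1.04% in PBS 10, a 43.3-fold range.

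The DNA just before the transcription start is shown first for Crygb, Crygc, Crygd, Crybb1, Cryba1 and Crygs. Whether it bears on the ratios between these genes in the counts, given below, was not tested. The sequences are the 120 bases before the annotated start, 5′ to 3′ on the gene's own strand, from RefSeq on GRCm38.p6 (the counts were made on GRCm39). All 10 genes had an entry and were searched, but the windows of Cryba2, Cryba4, Crybb2 and Crybb3 are not printed. Those windows hold either none of the motifs below or only TGCTGA. Capitals mark 4 short motifs searched on both strands: TATAAA and TATATA, forms of the TATA box that positions the polymerase; TTTGTG, a run noticed in the promoters of Crygb, Crygc and Crygd; and TGCTGA, the half-site of the element bound by Maf factors, which are regulators of lens fibre genes. The motifs were picked with these sequences in view, so the matches are a description.
Crygb (chr1:65082291-65082410, minus strand): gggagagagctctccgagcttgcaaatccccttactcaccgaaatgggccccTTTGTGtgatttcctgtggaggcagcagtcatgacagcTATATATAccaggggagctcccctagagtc
Crygc (chr1:65073533-65073652, minus strand): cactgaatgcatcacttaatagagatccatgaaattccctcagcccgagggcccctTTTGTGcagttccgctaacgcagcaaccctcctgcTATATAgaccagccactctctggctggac
Crygd (chr1:65063441-65063560, minus strand): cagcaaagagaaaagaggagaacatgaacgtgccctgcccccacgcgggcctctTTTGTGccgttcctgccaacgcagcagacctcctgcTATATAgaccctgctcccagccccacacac
Crybb1 (chr5:112255700-112255819, plus strand): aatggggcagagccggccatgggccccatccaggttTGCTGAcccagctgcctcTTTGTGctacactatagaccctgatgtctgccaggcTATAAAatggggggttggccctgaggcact
Cryba1 (chr11:77725294-77725413, minus strand): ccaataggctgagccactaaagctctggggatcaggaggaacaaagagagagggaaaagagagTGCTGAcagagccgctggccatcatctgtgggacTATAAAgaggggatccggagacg
Crygs (chr16:22811411-22811530, minus strand): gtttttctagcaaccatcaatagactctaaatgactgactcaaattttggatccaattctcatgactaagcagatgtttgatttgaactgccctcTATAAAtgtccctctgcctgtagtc

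Crygb, Crygc and Crygd were the 3 members with TATATA, which 2.51% of 32851 RefSeq promoter windows of the same length hold. The motif began 30, 29 and 30 bases before the start in Crygb, Crygc and Crygd, and in Crygb a second, overlapping copy began at 28. TTTGTG stood upstream of it, at 68, 64 and 66 bases, and was also found in Crybb1, at 66 bases. On either strand it is in 7.3% of all windows. Crybb1, Cryba1 and Crygs carried TATAAA, at 30, 23 and 25 bases before the start (6.34% of all windows). TGCTGA occurred in Crybb1, Cryba1 and Cryba4 and, on the other strand, in Crybb3 (8.18% of all windows). The windows of Cryba2 and Crybb2 held none of the 4.

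Crybb2, the most abundant beta crystallin transcript per kilobase, showed the pattern that all members followed. In the PBS libraries it measured 80.6 CPM in PBS 2, 581 in PBS 6, 2841 in PBS 10, 1512 in PBS 14 and 346 in PBS 18. The CNP libraries held 110 CPM in CNP 4, 1197 in CNP 8, 335 in CNP 12, 95.5 in CNP 16 and 425 in CNP 20. The groups overlapped: the highest CNP library lay below 2 PBS libraries and the lowest library of all was a PBS one. The highest level was 35.3 times the lowest.

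The other beta crystallins were scarcer and ranged as widely. Cryba1, whose transcript encodes both beta A3 and beta A1, was at 11, 145, 766, 247 and 52.7 CPM in PBS 2, 6, 10, 14 and 18. In CNP 4, 8, 12, 16 and 20 it was at 20.5, 330, 46.4, 16.2 and 71.8 CPM. Again PBS 10 was the highest and PBS 2 the lowest, with a 69.9-fold range. Cryba2 ran from 5.56 CPM in PBS 2 to 285 in PBS 10, and Cryba4, an acidic partner of the basic beta B crystallins, from 4.21 to 310 CPM in the same libraries. Cryba4 had the widest range of the members, 73.6-fold. Crybb1, a basic beta crystallin with long terminal extensions, spanned 3.88 to 177 CPM. Crybb3 spanned 12.8 to 423 CPM and had the narrowest range, 33.0-fold.

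Of the gamma crystallins, Crygb was at 56.3, 408, 2846, 477 and 267 CPM in PBS 2, 6, 10, 14 and 18, and at 78.2, 601, 237, 78.3 and 337 CPM in CNP 4, 8, 12, 16 and 20. PBS 10 thus stood far above the rest of its group, whose next value was 477 CPM. Its neighbour Crygc ran from 30.9 CPM in PBS 2 to 1506 in PBS 10, where the next PBS value was 246. Crygd, whose product is a major gamma crystallin of the lens nucleus, ran from 3.11 CPM in CNP 4 to 153 in PBS 10. Crygs spanned 9.78 to 478 CPM.

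**Figure D1:**
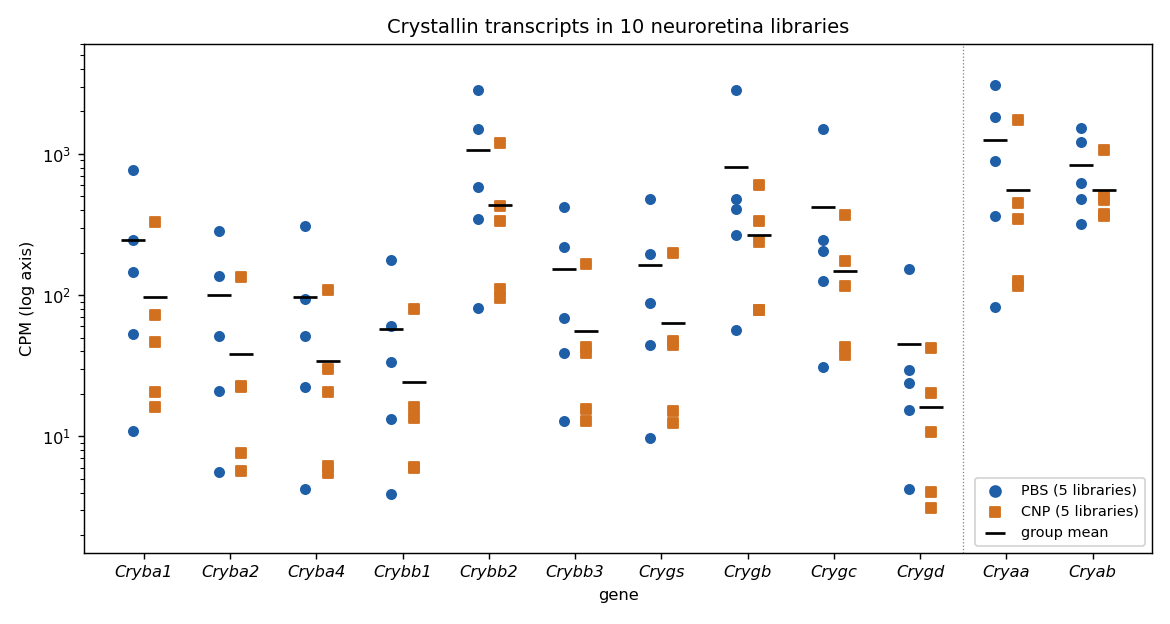
Level of each gene (columns) in CPM on a log axis, with 1 point per library (circles PBS, squares CNP, 5 each) and black bars for group means; Cryaa and Cryab stand right of the dotted line. For all 10 beta and gamma crystallins the groups overlap and the highest point is PBS 10, while Cryab has a 4.75-fold range.

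The order of the libraries was nearly the same for every member. PBS 10 was the highest library for 10 of 10 genes, and PBS 10, PBS 14, CNP 8 and PBS 6 were the 4 highest for all 10. PBS 2, CNP 4 and CNP 16 were the 3 lowest for all 10, with PBS 2 the lowest for 8 and CNP 4 for 2. Both extremes of the order therefore held libraries of both groups. Among 11499 genes tested, all 10 members were among the 14 with the widest spread over libraries. The SD of log2 CPM was 1.68 for Crygb to 2.0 for Cryba1 and Cryba4, against a median of 0.266 over all genes tested.

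Between genes, levels were compared per kilobase of the longest coding transcript (GENCODE M21). Crygb, at a mean of 849 CPM per kb over the 10 libraries, and Crybb2, at 830 CPM per kb, led. Crygb exceeded Crybb2 in 7 of 10 libraries, so the order of this pair was not the same throughout. Crygc followed with 364 CPM per kb, below Crybb2 in 10 of 10. Next came Cryba1 (219 CPM per kb, above Crygs in 10 of 10) and then Crygs (130 CPM per kb), which was above Crybb3 (116 CPM per kb) in 7. Cryba2 had 96.3 CPM per kb and Cryba4 80.9 CPM per kb. The scarcest were Crygd at 50 CPM per kb and Crybb1 at 46.5 CPM per kb, with Crygd the higher in 6 of 10 libraries. Before division by length, Crybb2 (mean 752 CPM) stood above Crygb (539 CPM), and Crybb1 (41 CPM) above Crygd (30.7 CPM). The order within each of these pairs thus depends on the scaling by length. Reverse transcription was primed from the poly(A) tail, and the stretch of each transcript that yielded counts was not stated. Whether counts here grow with transcript length, as division by length assumes, is therefore not known.

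The next question was whether the members kept fixed ratios to each other while their total moved. Expressed per 100 counts of Crybb2, Crygs counts were 12.1, 15, 16.8, 13 and 12.9 in PBS 2, 6, 10, 14 and 18, and 13.8, 16.6, 13.2, 13 and 11.2 in CNP 4, 8, 12, 16 and 20. The ratio thus moved by 1.5-fold over libraries in which Crygs itself moved 48.9-fold. On the log2 scale the SD of this ratio was 0.187, counting error alone would give 0.13, and the SD of log2 CPM of Crygs was 1.85. For the other beta crystallins the SD of the log2 ratio to Crybb2 was 0.261 (Crybb3), 0.321 (Crybb1), 0.342 (Cryba4), 0.352 (Cryba2) and 0.382 (Cryba1). Counting error alone would give 0.119 for Cryba1 and 0.202 for Crybb1. So the ratios were much steadier than the levels, but moved more than counting allows.

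Cryba1 showed how the mixture shifted among beta crystallins. It stood at 25.0, 27.5 and 27.0 counts per 100 Crybb2 counts in PBS 6, CNP 8 and PBS 10, and at 13.6 to 18.6 in the other 7 libraries. Cryba4 was likewise at 8.82, 9.12 and 10.9 in those 3 libraries and at 5.23 to 7.02 elsewhere. The pair Cryba1 and Cryba4 kept the closest ratio of all beta pairs, with an SD of 0.174 on the log2 scale, within the 0.212 that counting alone would give. Cryba4 and Crybb1 are neighbours on mouse chromosome 5, as are Crybb2 and Crybb3; their ratios had an SD of 0.345 and 0.261, beside a median of 0.321 over the 15 beta pairs.

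Crygb, Crygc and Crygd, which lie next to each other on chromosome 1, moved as a trio. The ratio of Crygb to Crygc had an SD of 0.116 on the log2 scale, the smallest of the 45 pairs, where counting alone would give 0.089. Against the beta crystallins the trio was looser: the median SD over its 18 pairs with a beta crystallin was 0.519, compared with 0.321 among beta pairs and 0.254 within the trio. Crygs, a gamma crystallin by sequence, was closer to the beta crystallins (median SD 0.225 over 6 pairs) than to the trio (0.487 over 3 pairs). Pairs share genes and libraries, so these medians are a description. Crygb and Crygc have stretches in common: 29.4% of the 50-base windows of the Crygb transcript and 24% of those of Crygc also occur in another gene's transcript, as do 34.0% for Crygd. For Crygb and Crygc the other genes are each other, Cryga and the gene model Gm28845; for Crygd they are Cryga, Cryge, Crygf and Gm28845. The treatment of reads in such stretches is not stated, and the split within the trio is uncertain to that extent. The 6 beta crystallins and Crygs had 0 such windows.

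**Figure D2:**
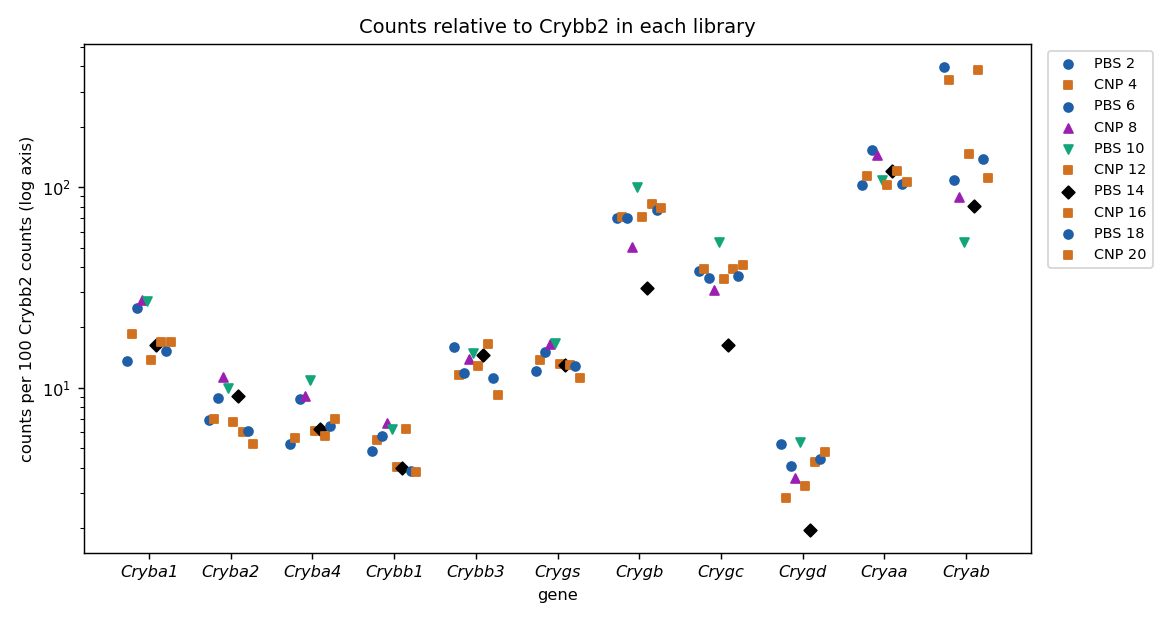
Counts per 100 Crybb2 counts (log axis) for each gene in each of the 10 libraries, circles PBS and squares CNP, with PBS 14 as a black diamond, CNP 8 as a purple triangle and PBS 10 as a green inverted triangle. PBS 14 is the lowest point for Crygb, Crygc and Crygd but lies within the range of the other libraries for the beta crystallins and Crygs.

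The trio was lowest relative to the beta crystallins in 2 libraries. Per 100 counts of the 6 beta crystallins, the trio had 33.2 counts in PBS 14 and 50.1 in CNP 8, and 68.3 (PBS 6) to 93.8 (PBS 10) in the other 8. In PBS 14 Crygb made up 14.8% of the members' counts (exact Clopper-Pearson 95% interval 14.2 to 15.5, which like the other intervals covers counting error only). In CNP 8 its share was 18.6% (18 to 19.2), and in PBS 10 it was 29.1% (28.7 to 29.5). Crybb2 showed the reverse, with 47.0% (46.0 to 47.9) in PBS 14 and 29.0% (28.6 to 29.5) in PBS 10. These intervals do not touch, so the mixtures of the 3 libraries differed by more than counting error. Without PBS 14 and CNP 8, a setting chosen after their ratios were seen, the median SD between the trio and the beta crystallins was 0.301, next to 0.298 among beta pairs. Within the trio it was 0.268 in that setting. The libraries with little crystallin RNA did not share this shift: the trio stood at 77.4, 76.3 and 82.9 counts per 100 beta crystallin counts in PBS 2, CNP 4 and CNP 16.

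**Figure D3:**
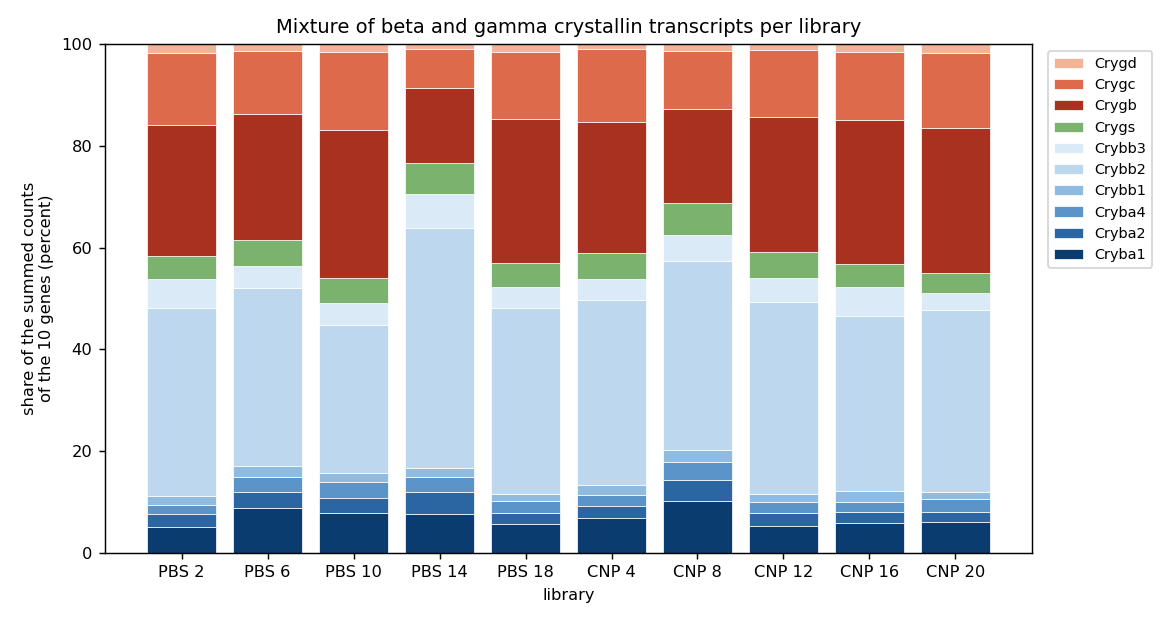
Stacked bars of the share of each of the 10 genes in their summed counts, in percent, for each library (beta crystallins blue, Crygs green, Crygb, Crygc and Crygd red). The trio fills 23.4% of the bar in PBS 14 and 31.3% in CNP 8, and 38.5% to 46.0% elsewhere.

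The alpha crystallins, small heat shock proteins with chaperone activity, set a contrast. Cryaa, the lens alpha A crystallin, ran from 82.8 CPM in PBS 2 to 3087 in PBS 10, and stood at 103 to 153 counts per 100 Crybb2 counts (SD of the log2 ratio 0.206). Cryab, the alpha B crystallin that glia and muscle also express, was at 320, 625, 1519, 1217 and 479 CPM in PBS 2, 6, 10, 14 and 18 and at 378, 1073, 493, 366 and 470 CPM in CNP 4, 8, 12, 16 and 20. It was thus highest in the libraries where the beta and gamma crystallins were highest, but did not fall below 320 CPM. Per 100 Crybb2 counts it went from 53.5 in PBS 10 to 397 in PBS 2, a 7.42-fold range. The 9 members other than Crybb2 moved by 1.5-fold (Crygs) to 3.26-fold (Crygc) on this measure. The highest level of Cryab was 4.75 times its lowest, where the members' was 33.0 to 73.6 times.

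Genes with the most similar pattern were sought among all 11499 tested, by the SD over the 10 libraries of the log2 ratio of a gene's count to the summed count of the members. The median gene had an SD of 1.79. Below 1 were 5 genes besides the members: Cryaa (0.277), Mip (0.295), Grifin (0.333), Bfsp2 (0.356) and Lgsn (0.519). Mip encodes the water channel aquaporin 0 of lens fibre membranes, Bfsp2 the lens beaded filament protein phakinin, Grifin a lens galectin and Lgsn lengsin. Mip ran from 1.52 CPM in PBS 2 to 113 in PBS 10 and Bfsp2 from 3.37 to 113 CPM. Counting alone would give an SD of 0.293 for Mip and 0.477 for Lgsn, close to what was seen. Next, at a distance, came Cryab (1.04), Gm11837 (1.07), Sik1 (1.12), Polh (1.15), Gm43435 (1.19), Zfp691 (1.22) and 4933415A04Rik (1.25).

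**Figure D4:**
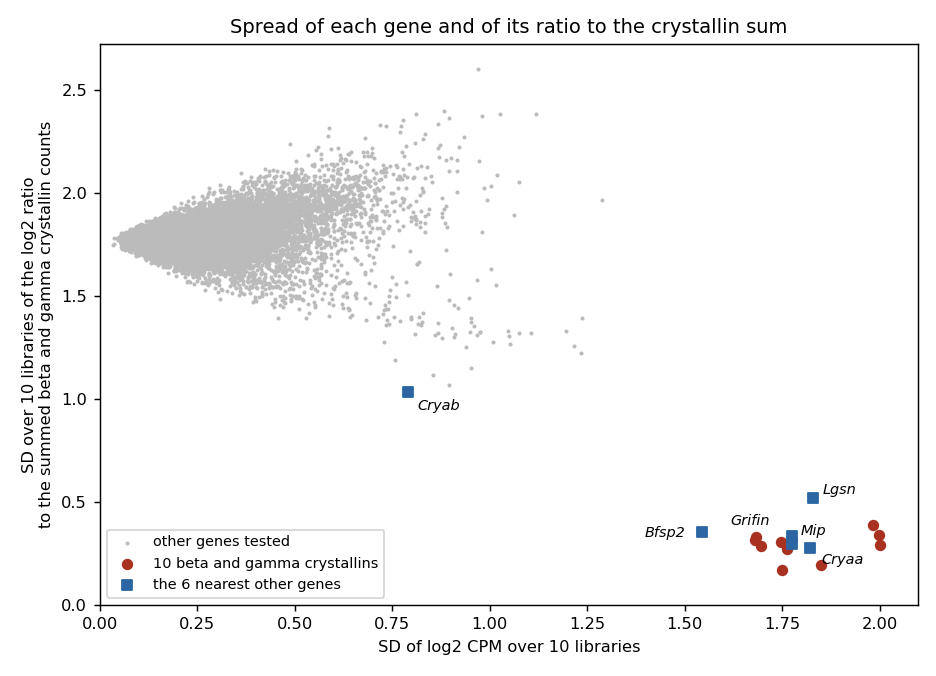
Each point is a tested gene, placed by the SD of its log2 CPM over the 10 libraries (horizontal) and the SD of its log2 ratio to the summed beta and gamma crystallin counts (vertical). The 10 members (red) sit at the lower right with Cryaa, Mip, Grifin, Bfsp2 and Lgsn (blue squares). Cryab, also a blue square, lies at the lower edge of the grey cloud. The vertical value of the cloud centres on 1.79.

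Other genes of lens and eye were read from lists of genes. Of 15 lens fibre structure genes 8 were tested, with 7 lower and 1 higher in CNP, a median log2 fold change of -0.80, and 0 past the threshold. Over all genes tested, 51.2% were lower. The 7 include Mip, Bfsp2, Lgsn and Grifin, which rose and fell with the members, so their signs are not separate observations. The summed level of all 15 was 103 to 487 CPM in PBS and 111 to 212 in CNP, lowest in PBS 2 and highest in PBS 10 as for the members. Tdrd7, the most abundant of the 15 and also a gene of other cells, stayed at 70.0 to 106 CPM. In PBS 2 it made up 70.0 of the 103 CPM, while Mip, Bfsp2, Lgsn and Grifin had 1.52, 3.37, 0.337 and 0.843 CPM there. The fibre membrane gene Lim2 had under 1 CPM in every library, and Lenep and the lens epithelial factor Foxe3 had 0 counts throughout. Other untested fibre genes were present at low levels. Bfsp1 ran from 0.714 CPM in CNP 16 to 17.2 in PBS 10. Gja3 ran from 0 CPM in CNP 16 to 6.64 in PBS 14, and Birc7 from 0 in PBS 2 to 6.33 in PBS 10. Of 16 transcription factors of the lens, many of them also retinal, 12 were tested, with 9 lower, 3 higher, a median log2 fold change of -0.04 and 0 past the threshold. Pax6, the eye master regulator, stood at 75.8 to 190 CPM with its lowest value in PBS 14, and Prox1, a regulator of fibre genes, at 15.4 to 39.1 CPM. Both were highest in PBS 2, where the crystallins were lowest. Their next highest levels, 182 CPM for Pax6 and 31 CPM for Prox1, were in PBS 6, a library of high crystallin level. Pax6 stood at 126 to 190 CPM in the libraries numbered up to 10 and at 75.8 to 106 CPM in those above 10. For Prox1 the ranges were 21.2 to 39.1 and 15.4 to 22.1 CPM.

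Markers of 3 neighbouring tissues had their highest sum in CNP 12, a library of middling crystallin level. For the 14 pigment epithelium genes the sum was 1075 to 3054 CPM among PBS and 1490 to 3218 among CNP libraries, with PBS 6 lowest. Part of this sum is Rlbp1, also a gene of the Mueller glia of the retina, at a mean of 611 CPM in PBS and 666 in CNP. Of the 10 pigment epithelium genes that were tested, 9 were higher and 1 lower (median log2 fold change 0.34), and 0 passed. Of all genes tested, 51.2% were lower. The sum was 1187, 2040, 1075, 1490 and 1677 CPM in PBS 2, CNP 4, PBS 6, CNP 8 and PBS 10. Every library numbered above 10 had more, 2222 to 3218 CPM. Ttr divided at the same number, with 226 to 614 against 653 to 1157 CPM. The groups are unevenly spread over this divide, and signs of genes that move together are not separate observations. The 10 ciliary and iris genes, among them muscle genes, summed to 37.4 to 58.0 CPM in PBS and 39.1 to 213 in CNP. Of these 3 were tested, with 1 lower, 2 higher (median log2 fold change 0.37) and 0 past the threshold. The 7 corneal genes summed to 0.873 to 8.73 CPM and had 0 tested. Gfap, the intermediate filament of reactive glia, was at 34.2 to 68.5 CPM. The part that lens or any of these tissues had in the crystallin levels was not tested.

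The design asks whether the nanoparticles changed these levels relative to PBS. All 10 members had lower means in CNP, and 0 of 10 passed the test. Over all 11499 genes, 0 (0%) passed edgeR's quasi-likelihood test at an adjusted p under 0.05, with 137 at an unadjusted p under 0.05 (1.19%), none of them members; DESeq2 and limma-voom also called 0. The members' log2 fold changes ran from -1.61 (Crygb) to -1.22 (Crybb1), with a median of -1.40, where all genes tested had a median of -0.0036. A fold change below 0 was found for 51.2% of all genes, and one below -1 for 15 genes (0.13%), which were the 10 members, Cryaa, Lgsn, Mip, Bfsp2 and Grifin. Since the members rose and fell together over libraries, their shared sign is 1 observation and not 10.

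The mean of Crybb2 was 1072 ± 1126 CPM for PBS against 432 ± 450 CPM for CNP (SD, 5 libraries each), a log2 fold change of -1.31 (SE 0.84; 95% interval -3.12 to 0.50; edgeR adjusted p = 0.9997). Crygb averaged 811 ± 1149 and 266 ± 217 CPM, a log2 fold change of -1.61 (SE 0.85; 95% interval -3.45 to 0.24). For Cryba1 the means were 244 ± 305 and 96.9 ± 132 CPM, and for Crygs 163 ± 189 and 63.5 ± 77.1 CPM. In each case the difference between the means was smaller than the SD of the PBS group and larger than that of the CNP group, and it did not pass the test. The intervals of all 10 members included both 0 and a 4-fold decrease, so these libraries do not settle the size of a difference. Groups overlapped for 10 of 10 members (they did not overlap for 0.287% of all genes). The biological coefficient of variation was 84.8% (Crybb2) to 98.1% (Cryba1), and its median over all genes was 15.8%.

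Single libraries set the size of the difference. Without PBS 10 the members' log2 fold changes lay between -0.60 (Crybb3) and -0.03 (Crygc), and the mean summed level in PBS went from 3165 ± 3863 CPM (SD, n = 5) to 1510 ± 1281 (SD, n = 4), beside 1176 ± 1210 in CNP (SD, n = 5). Without CNP 8 they lay between -2.80 (Cryba2) and -2.14 (Crybb2), with unadjusted p of 0.0106 to 0.0364 and an adjusted p of 1.0 by edgeR. On mean log2 CPM, which gives less weight to high libraries and was added after seeing the data, differences were -1.24 (Cryba2) to -0.92 (Crygc), and the exact permutation p was 0.302 to 0.452 (two-sided; 0.00794 is the smallest that groups of 5 and 5 can give).

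**Figure D5:**
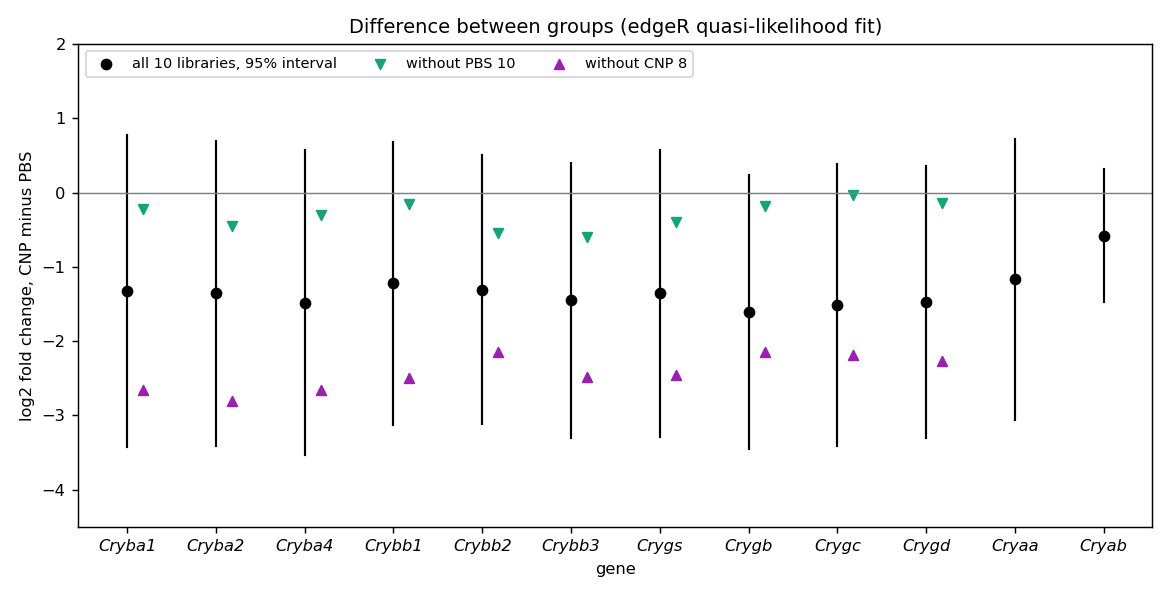
Log2 fold change of CNP over PBS for each gene from the fit on all 10 libraries (black points, lines are 95% intervals), with the members' values without PBS 10 (green) and without CNP 8 (purple). Every interval crosses 0, and leaving out PBS 10 brings all 10 members to between -0.60 and -0.03.

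The mixture, as each member's share of their summed counts, was compared between groups as well. Crybb2 made up 36.9% ± 6.45 of the members' counts in the PBS group against 36.3% ± 1.21 in the CNP group (SD over 5 libraries; two-sided exact permutation p = 0.817). Crygb made up 24.5% ± 5.70 and 25.6% ± 4.05 (exact permutation p = 0.643). Crygc took 12.5% ± 2.95 and 13.4% ± 1.27, and Cryba1 6.97% ± 1.60 and 6.82% ± 1.98. Over the 10 members compared, differences between group means ran from -0.58 percentage points (Crybb2) to 1.07 (Crygb), and unadjusted exact permutation p from 0.468 (Cryba2) to 0.905 (Cryba1). The 6 beta crystallins together held 56.4% ± 8.31 in PBS and 54.8% ± 4.5 in CNP. The trio of Crygb, Crygc and Crygd stood at 71.0 ± 23.1 counts per 100 beta crystallin counts for PBS against 74.6 ± 14.5 for CNP (SD, 5 libraries each). No difference in mixture beyond the spread between libraries was thus detected in these 10 libraries.

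Cryge, Crygf and Cryga, the other members of the chromosome 1 gamma cluster, had 81, 115 and 80 counts over all libraries, and Crygn 87. PBS 10 held 47 of the Cryge, 73 of the Crygf and 36 of the Cryga counts, and PBS 14 with 25 and CNP 8 with 21 the most of Crygn. Of the 12 other crystallin genes listed, 5 were tested (Cryaa, Cryab, Crym, Cryl1 and Cryz), with 2 lower, 3 higher and 0 past the threshold. Crym and Cryz, enzyme-related proteins named for their place in the lenses of other animals, stayed at 59.7 to 92.4 and 24.4 to 36.2 CPM.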

How the data were processed

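The authors deposited 1 table of raw counts per Ensembl gene for 10 libraries. Per the labels' protocols, primers with a barcode and a unique molecular identifier (UMI) copied poly(A) RNA into cDNA, which was amplified and sequenced. STAR, STARsolo and GRCm39 are named in the submitters' processing notes. Versions, annotation release, use of strand, treatment of multi-mapping reads and UMI collapsing were not stated in labels or headers; uncollapsed UMIs would make counting intervals too narrow. Columns were matched to samples by library name. Symbols from a table of Ensembl IDs matched 51880 of 57186 rows; unmatched rows held 0.881% of counts.

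Genes were filtered with filterByExpr (minimum count 10, minimum total 15; 11499 kept), scaled by TMM and tested with edgeR 4.0.16's quasi-likelihood test (R 4.3.3), two-sided, Benjamini-Hochberg adjusted over all genes tested, threshold 0.05, no covariate. Log2 CPM used a prior count of 2 and log2 count ratios a pseudocount of 0.5. The SD expected from counting is the Poisson value for both counts of a ratio. Shares were compared by exact permutation tests over libraries. Alternatives were DESeq2 1.42.0, limma-voom (limma 3.58.1), other scalings and filters, a covariate and leaving out each library. Scripts were tested on simulated data. A list of retinal cell markers is not reported here. The members and lists were chosen with earlier results of these data known. Named are all members, Cryaa, Cryab, the 12 genes nearest in ratio, and list members by mean level; further list genes were added after their values were seen.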

Additional observations from a re-analysis of the deposited data

Results flagged for a closer look

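Values that stood apart from the other 4 libraries of their group by Dixon's criterion were looked for in 68 sets of 5, and 15 were found. For normally distributed values chance alone gives about 1 in 20. The CPM of these genes was skewed over libraries, so that rate is no fair measure for 15 of 68. The sets are also not independent, because the genes move together. In PBS, library PBS 10 stood high for Crygb (2846 CPM; next 477), Crygc (1506; next 246) and Crygd (153; next 29.6). In CNP, library CNP 8 stood high for Cryba1 (330 CPM; next 71.8), Cryba2 (135; next 22.6), Cryba4 (109; next 29.8), Crybb1 (80.0; next 16.2), Crybb3 (166; next 42.8), Crygs (198; next 47.5), Cryaa (1739; next 449) and Cryab (1073; next 493). The trio Crygb, Crygc and Crygd did not stand apart in CNP 8, and neither did Crybb2 (1197 CPM; next 425). The beta crystallins did not pass the criterion in PBS 10. That library was still the highest for all 10 members, with Cryba4 at 310 CPM (next PBS value 93.9). CNP 8 also differed in mixture, with a Cryba2 share of 4.18% (next 2.54%), a Crygb share of 18.6% (next 25.8%) and 11.3 Cryba2 counts per 100 Crybb2 counts (next 6.97). Cryab stood at 397 counts per 100 Crybb2 counts in PBS 2, where the next PBS value was 138.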

How the results depend on the processing

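No paired analysis was possible because the groups share no replicate number. Under 19 alternative settings 0 genes were called in any, with 105 (library totals only) to 422 (no filter on low counts) at an unadjusted p under 0.05, among them 272 with the covariate, 301 without PBS 14 and 205 without CNP 8; adjusted p of the members ran from 0.928 to 1.0, and all 200 of their alternative fold changes, including 10 from the added permutation test, stayed below 0 (from -2.80 to -0.03). Scaling moved them little (-1.62 to -1.19 with library totals only), a covariate for library number above 10 gave -1.42 to -1.10, and limma-voom -1.21 to -0.90. The direction of small differences in mixture was kept in 103 of 119 alternatives and turned in 16, over 7 members, and 0 of 119 alternatives had an exact permutation p under 0.05 (smallest 0.0635). Leaving out 1 library at a time, the difference of shares in percentage points, CNP minus PBS, ran from -0.995 to 0.302 for Cryba1, -0.019 to 0.259 for Crybb1, -2.548 to 1.936 for Crybb2, -0.677 to 0.021 for Crybb3, -0.469 to 0.091 for Crygs, -1.353 to 2.804 for Crygb and -0.346 to 1.591 for Crygc. It stayed below 0 for Cryba2 (-0.752 to -0.055), Cryba4 (-0.482 to -0.13) and Crygd (-0.285 to -0.034). With Cryaa and Cryab in the denominator it turned to -0.042 for Crybb1, -0.919 for Crygb and -0.276 for Crygc, and every member's difference was below 0. The mean log2 ratio of Cryab to Crybb2 was 0.85 (SD 0.95) in CNP and 0.27 (SD 1.09) in PBS. The cause of the turn was not tested. The SD of the log2 ratio to Crybb2 fell to 0.264 for Crygb and 0.215 for Crygc without PBS 14. The spread between libraries, more than depth, limits the comparison: every member had at least 17 counts in each library.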

Other observations

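Sik1, the kinase gene next to Cryaa on its chromosome, was among the 12 genes nearest to the members in ratio, at 14.5 CPM in CNP 8, 8.29 in PBS 10 and 8.15 in PBS 14 and at 2.19 to 6.96 CPM in the other libraries. Zfp691, a zinc finger gene, was at 61.0, 55.9, 46.5 and 45.5 CPM in PBS 14, CNP 8, PBS 10 and CNP 20 and at 5.48 to 21.8 CPM in the others. Polh, a DNA polymerase, had 13.7, 10.6 and 8.95 CPM in CNP 8, PBS 14 and PBS 10, and 8.70 CPM in CNP 20. Unlike the members, these 3 were highest in PBS 14 or CNP 8 and not in PBS 10, and their SD of the ratio to the members was over 1.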
